A study of Homo sapiens with 4 samples.

Results

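The 41 genes described here encode the vacuolar-type proton pump (V-ATPase), the factors that assemble it, and the complex that activates the kinase mTORC1 on the lysosome. They were chosen by symbol, and all 41 matched 1 row each of the 48162 rows of the count table. RNA was sequenced from cells labelled MDA-MB-453, an established breast cancer cell line of human origin, in 2 libraries with reduced TMEM9 (TMEM9 KD) and 2 wild-type (WT) libraries. The series' own design line also calls the profiles retinal, which differs from that label. Every library carries the same cell line label, and no label gives another treatment, a time or the means by which TMEM9 was reduced. Whether libraries of 1 group are separate cultures is not labelled, so p-values here cover only the library-to-library spread, possibly a technical one.

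The V-ATPase acidifies lysosomes, endosomes and secretory vesicles. Its V1 sector sits in the cytosol and hydrolyses ATP, and this turns a ring of proton-carrying subunits in the membrane-embedded V0 sector. Both sectors can come apart and be joined again, and a RAVE-like complex of DMXL, WDR7 and ROGDI proteins assists the joining. On lysosomes the pump contacts Ragulator, which anchors the Rag GTPases, and these recruit mTORC1 when amino acids are plentiful. TMEM9, the gene that was reduced, encodes a lysosomal and endosomal membrane protein reported to bind the accessory subunit ATP6AP2.

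TMEM9 (ENSG00000116857) had 51 and 78 counts in TMEM9 KD, against 1120 and 1497 counts in WT. The targeted transcript was thus low in both knockdown libraries (log2 fold change -4.37, SE 0.126, edgeR adjusted p = 4.12e-52). Library totals ran from 15960941 to 17065126 counts in TMEM9 KD and from 15323843 to 18517337 counts in WT. Mitochondrial transcripts took 2.83 to 3.18% of the counts in TMEM9 KD and 3.98% in both WT libraries. Of 12 luminal and apocrine markers, 3 were higher and 4 lower in TMEM9 KD, with summed levels of 107.0 to 112.3 CPM per kilobase in TMEM9 KD and 115.1 to 117.6 in WT. SPDEF, KRT19 and TFAP2B, markers of luminal cells, had at most 6 counts in any library. These low values go against the label, since this line is known for luminal and apocrine genes. All 5 basal markers were lower, with sums of 4.75 to 4.86 CPM per kilobase in TMEM9 KD and 30.6 to 33.5 in WT, and KRT5 and KRT14 had 0 counts in TMEM9 KD. Of 6 mesenchymal markers, 3 were higher and 2 lower, and their sums were 931 to 944 CPM per kilobase in TMEM9 KD and 1012 to 1030.2 in WT. VIM, COL1A1 and AXL, genes of mesenchymal cells, had at least 3325 counts in every library. Single mesenchymal markers moved far in opposite directions, as COL3A1 was 30.7-fold lower, with 454 and 602 counts in TMEM9 KD against 14163 and 17366 counts in WT. FN1 was 2.82-fold lower and AXL 3.20-fold higher. Of 6 leukocyte markers, 1 was higher and 1 lower, CD3E and LYZ had no count, and sums were 1.03 to 1.38 CPM per kilobase in TMEM9 KD and 3.54 to 4.72 in WT. Endothelial sums stayed at or below 0.138 and photoreceptor sums at or below 0.333 CPM per kilobase, with GNAT1 at no count. Markers of osteoclasts and intercalated cells, which use tissue-restricted pump subunits, summed to 0.668 to 1.19 CPM per kilobase in TMEM9 KD and 1.64 to 1.76 in WT, and OCSTAMP and DCSTAMP had no count. The part of these shifts in the changes below was not tested.

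Of the 37 genes of the set that passed the filter on low counts, 9 were higher and 11 lower in TMEM9 KD at an adjusted p below 0.05 (edgeR's quasi-likelihood test, Benjamini-Hochberg over all genes tested). Over all 14923 genes tested, 57.7% were called, 28.7% higher and 29% lower, and of the 37 genes 54.1% were called. The median log2 fold change of the 37 was -0.11, against 0.0070 over all genes, and the median size of the change was 0.29, against 0.38. Only 4 of the 37, ATP6V0E2, ATP6V1B1, ATP6V1E2 and DMXL2, were called and changed at least 2-fold, which is 10.8% of the set, where 17.4% of all genes did. In 26 of the 37 genes, or 70.3%, both knockdown libraries lay on 1 side of both WT libraries, as they did in 77.6% of all genes. The set as a whole thus had shares near those of the transcriptome, but called shares at matched level lay farther apart. With a mean of at least 10 CPM per kilobase in a group, 47.6% of 21 genes of the set were called. Over all genes at that level, 69.6% were called. Under that level in both groups, 62.5% of 16 genes of the set were called, beside 52.4% of all genes. These differences were not tested. In RNA from whole cultures, fewer cells of a kind and less RNA per cell cannot be told apart.

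Values below are CPM, read counts scaled to library size with TMM factors, and each is given per library. Where levels of different genes are set side by side, CPM was divided by exon length in kilobases. A log2 fold change is of TMEM9 KD over WT and has its standard error (SE). Tested against a change of 1.5-fold, 2 genes remained higher, ATP6V1E2 and RPTOR, and 4 remained lower, ATP6V0E2, ATP6V1B1, DMXL2 and ROGDI.

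**Figure D1:**
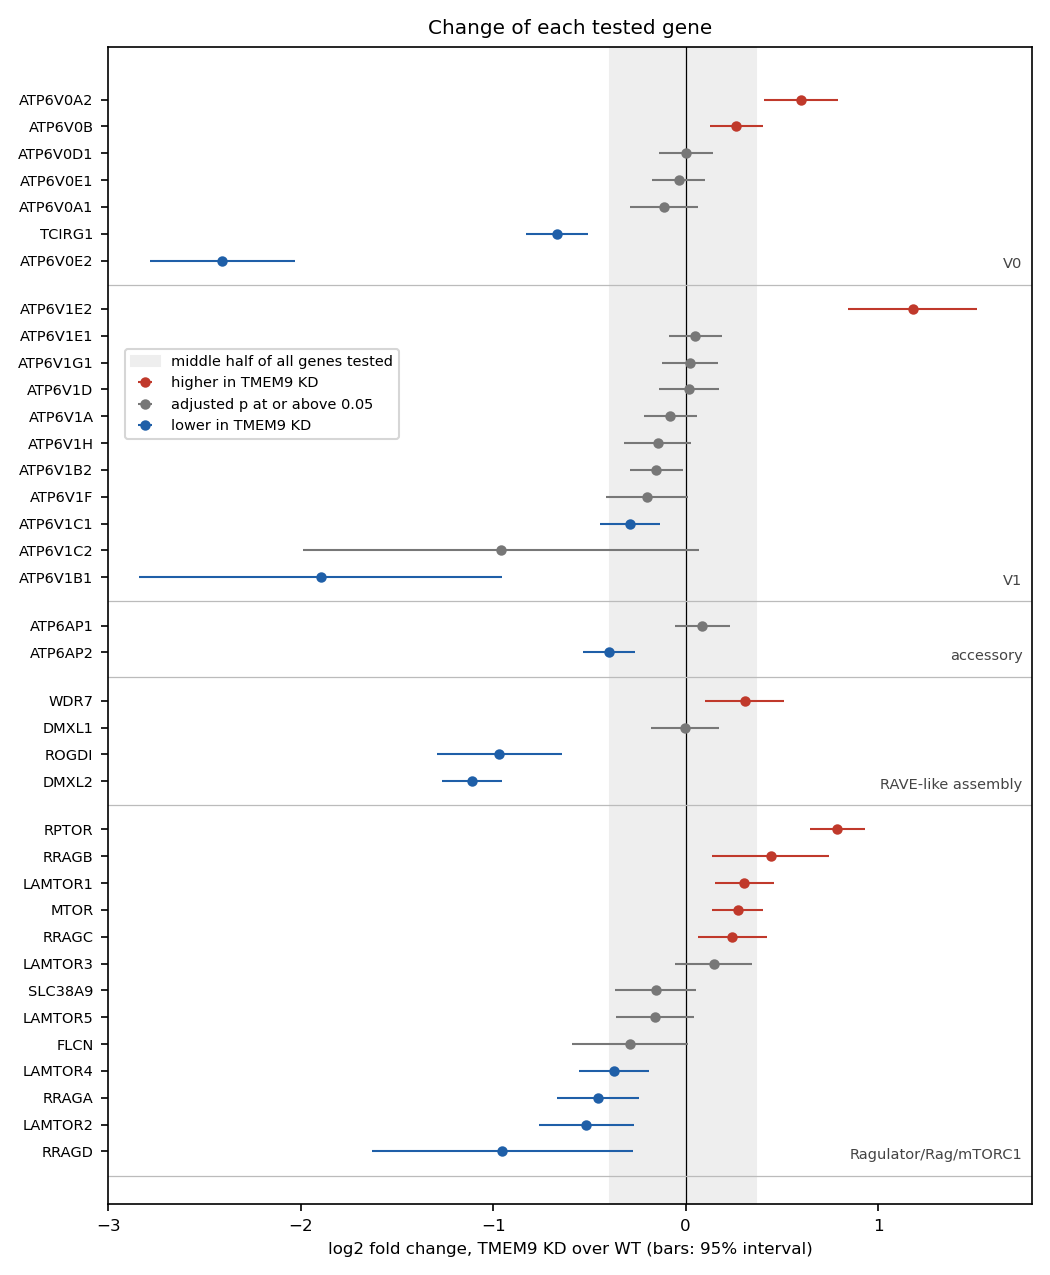
Log2 fold change (x axis, TMEM9 KD over WT, with 95% intervals) of the 37 tested genes by group, with the quartiles of all genes tested (-0.39 and 0.37) as a grey band. ATP6V0E2 (-2.41), ATP6V1B1 (-1.90) and DMXL2 (-1.11) lie farthest to the left and ATP6V1E2 (1.18) farthest to the right, and the uncalled V0 and V1 subunits other than ATP6V1C2 have estimates inside the band.

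Promoter sequences are shown for 5 genes, since genes of the pump carry E-boxes of the kind that TFEB and related factors bind, and these 5 span every kind of call. RefSeq promoters (GRCh38.p14) were at hand for 32 of the 41 genes, and each window ran from 250 bases before the start site to 50 after it. The core CACGTG, which reads the same on both strands, was in a promoter of 8 of the 32 genes (25%) and of 8.77% of the 27305 genes of the table. The longer TCACGTGA, which contains that core, was in 3 of 32 (9.38%) and 1.18% of all genes. The full lysosomal element, in which the core has GT before it and AC after it and which so contains both, was in 2 of 32 (6.25%) and 0.421% of all genes. Of the 8 genes with the core, ATP6V0B, LAMTOR1, RRAGB and RRAGC were called higher, ATP6V0E2 and LAMTOR4 lower, and ATP6V0D1 and ATP6V1G1 were not called. The 150 bases before the start site follow, 5′ to 3′ on the gene's strand, with the matches in capitals. They lie at chrX:55717599-55717748 on the plus strand for RRAGB, chr1:43974810-43974959 on the plus strand for ATP6V0B, chr7:149872818-149872967 on the plus strand for ATP6V0E2, chr16:67481158-67481307 on the minus strand for ATP6V0D1 and chr9:114587619-114587768 on the plus strand for ATP6V1G1.
RRAGB, called higher: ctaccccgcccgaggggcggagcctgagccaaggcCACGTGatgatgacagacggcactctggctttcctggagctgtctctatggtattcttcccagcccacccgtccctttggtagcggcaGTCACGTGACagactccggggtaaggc
ATP6V0B, called higher: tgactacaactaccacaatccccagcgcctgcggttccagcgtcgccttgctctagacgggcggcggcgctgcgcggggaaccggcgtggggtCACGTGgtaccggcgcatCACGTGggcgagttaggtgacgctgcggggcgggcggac
ATP6V0E2, called lower: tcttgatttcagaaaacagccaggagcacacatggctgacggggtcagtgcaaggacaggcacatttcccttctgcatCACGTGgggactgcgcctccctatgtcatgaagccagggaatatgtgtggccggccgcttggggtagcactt
ATP6V0D1, not called: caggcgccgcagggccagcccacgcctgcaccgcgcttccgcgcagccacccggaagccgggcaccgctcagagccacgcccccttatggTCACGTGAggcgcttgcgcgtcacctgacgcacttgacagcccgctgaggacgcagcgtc
ATP6V1G1, not called: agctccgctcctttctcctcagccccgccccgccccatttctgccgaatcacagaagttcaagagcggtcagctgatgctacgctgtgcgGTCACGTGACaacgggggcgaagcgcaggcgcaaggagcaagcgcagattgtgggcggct
The elements of ATP6V0D1 and ATP6V1G1 both begin 60 bases before the start site, and the full element of RRAGB begins 27 bases before it. These matches are letters in a window and describe no binding in these cells. No promoter was read for ATP6V0D2, ATP6V0E1, ATP6V1A, ATP6V1B2, ATP6V1C1, ATP6V1E2, ATP6V1H, RRAGA and RRAGD.

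Among the V0 genes, which encode the membrane sector, 7 were tested, and TMEM9 KD had 2 of these higher and 2 lower, or 57.1% called, beside 57.7% over all genes. The minor form of subunit e, ATP6V0E2, fell farthest, while the subunits with the highest levels moved by little. ATP6V0E2 (ENSG00000171130) had 2.93 and 2.69 CPM in TMEM9 KD, against 13.6 and 16.2 CPM in WT. The knockdown libraries lay far below both WT libraries, a 5.30-fold lower level (log2 fold change -2.41, SE 0.190, adjusted p = 1.30e-20). Its paralog ATP6V0E1, which encodes the widely used form of this small subunit, had 110.4 and 103.4 CPM in TMEM9 KD, against 109.7 and 109.6 CPM in WT. These values overlapped, with a log2 fold change of -0.04 and a 95% interval of -0.17 to 0.10. ATP6V0E2 therefore made up 0.633 and 0.621% of the summed subunit e level in TMEM9 KD, against 2.89 and 3.42% in WT. An antisense gene, ATP6V0E2-AS1, shares 864 exon bases with ATP6V0E2, and it had 1 and 2 counts in TMEM9 KD against 11 and 15 counts in WT. The sources used here name no strand setting, so reads from this pair cannot be told apart.

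Subunit a, the stator arm through which protons pass, has 4 paralogs that are sent to different membranes. TCIRG1 (ENSG00000110719), the a3 form known from osteoclast acid secretion and from lysosomes, had 45.2 and 45.6 CPM in TMEM9 KD, against 70.5 and 73.8 CPM in WT. Both knockdown libraries were below both WT libraries (log2 fold change -0.67, SE 0.0815, adjusted p = 1.08e-11). ATP6V0A2 (ENSG00000185344), the a2 form of Golgi and endosomes, went the other way. It had 40.8 and 43.9 CPM in TMEM9 KD, against 29.7 and 26.4 CPM in WT (log2 fold change 0.60, SE 0.0977, adjusted p = 1.06e-07). ATP6V0A1, the a1 form found in many cells and at synapses, had 41.1 and 46.2 CPM in TMEM9 KD, against 49.0 and 45.6 CPM in WT. Its groups overlapped (log2 fold change -0.11, 95% interval -0.29 to 0.06). Without TMEM9 KD replicate 2 its log2 fold change was -0.21. ATP6V0A4, the a4 form of kidney intercalated cells, did not pass the filter, with 6 and 8 counts in TMEM9 KD against 1 and 0 counts in WT. Their ratio was 13.6, with a 95% counting interval of 2.07 to 576 (exact Clopper-Pearson, counting error only). The interval pools the libraries of each group and was computed for no other filtered gene, so it is not a test of a change.

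Per length, TCIRG1 was the leading a form in all 4 libraries. The shares depend on the exon lengths used, 4384 bases for TCIRG1, 10955 for ATP6V0A1 and 13729 for ATP6V0A2. Not divided by length, ATP6V0A1 was above TCIRG1 in TMEM9 KD replicate 2 (46.2 against 45.6 CPM). Per length, TCIRG1 held 60.2 and 58.0% of the summed a level in TMEM9 KD, against 70.8 and 73.5% in WT. ATP6V0A2 held 17.4 and 17.8% in TMEM9 KD, against 9.50 and 8.38% in WT, and ATP6V0A1 held 21.9 and 23.5% in TMEM9 KD against 19.7 and 18.2% in WT. The summed a level was 17.1 and 17.9 CPM per kilobase in TMEM9 KD, against 22.7 and 22.9 in WT. Of the V0 subunits with paralogs, the a set was the one whose leading form was called.

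ATP6V0B, which encodes the c'' subunit of the proton-carrying ring, had 113.9 and 122.4 CPM in TMEM9 KD, against 99.8 and 97.2 CPM in WT. The groups did not overlap, and the difference was small (log2 fold change 0.26, SE 0.0692, adjusted p = 0.000673). Leaving out WT replicate 2 ended the call of ATP6V0B (adjusted p = 0.0742). ATP6V0D1, the subunit that couples the ring to the central stalk, had 93.0 and 96.9 CPM in TMEM9 KD, against 92.3 and 97.0 CPM in WT. These overlapped almost fully, with a 95% interval of -0.14 to 0.15 for the log2 fold change. ATP6V0D2, its osteoclast and kidney paralog, was filtered out with 4 and 12 counts in TMEM9 KD and 6 and 7 counts in WT.

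ATP6V0C, which encodes the main c subunit of the ring, had 3 and 3 counts in TMEM9 KD and 2 and 2 counts in WT, and did not pass the filter. Its partners in the V0 sector had up to 2140 counts in a library. In GENCODE 29 the gene AC093525.2 shares 862 exon bases with ATP6V0C on the same strand, AC093525.1 shares 218, and both had 0 counts in all 4 libraries. The highest count of a named pseudogene copy of ATP6V0C in any library was 2. The sources used here do not say how reads over shared exons were counted, so these few counts cannot be read as the level of the c subunit, and no comparison is made for it.

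**Figure D2:**
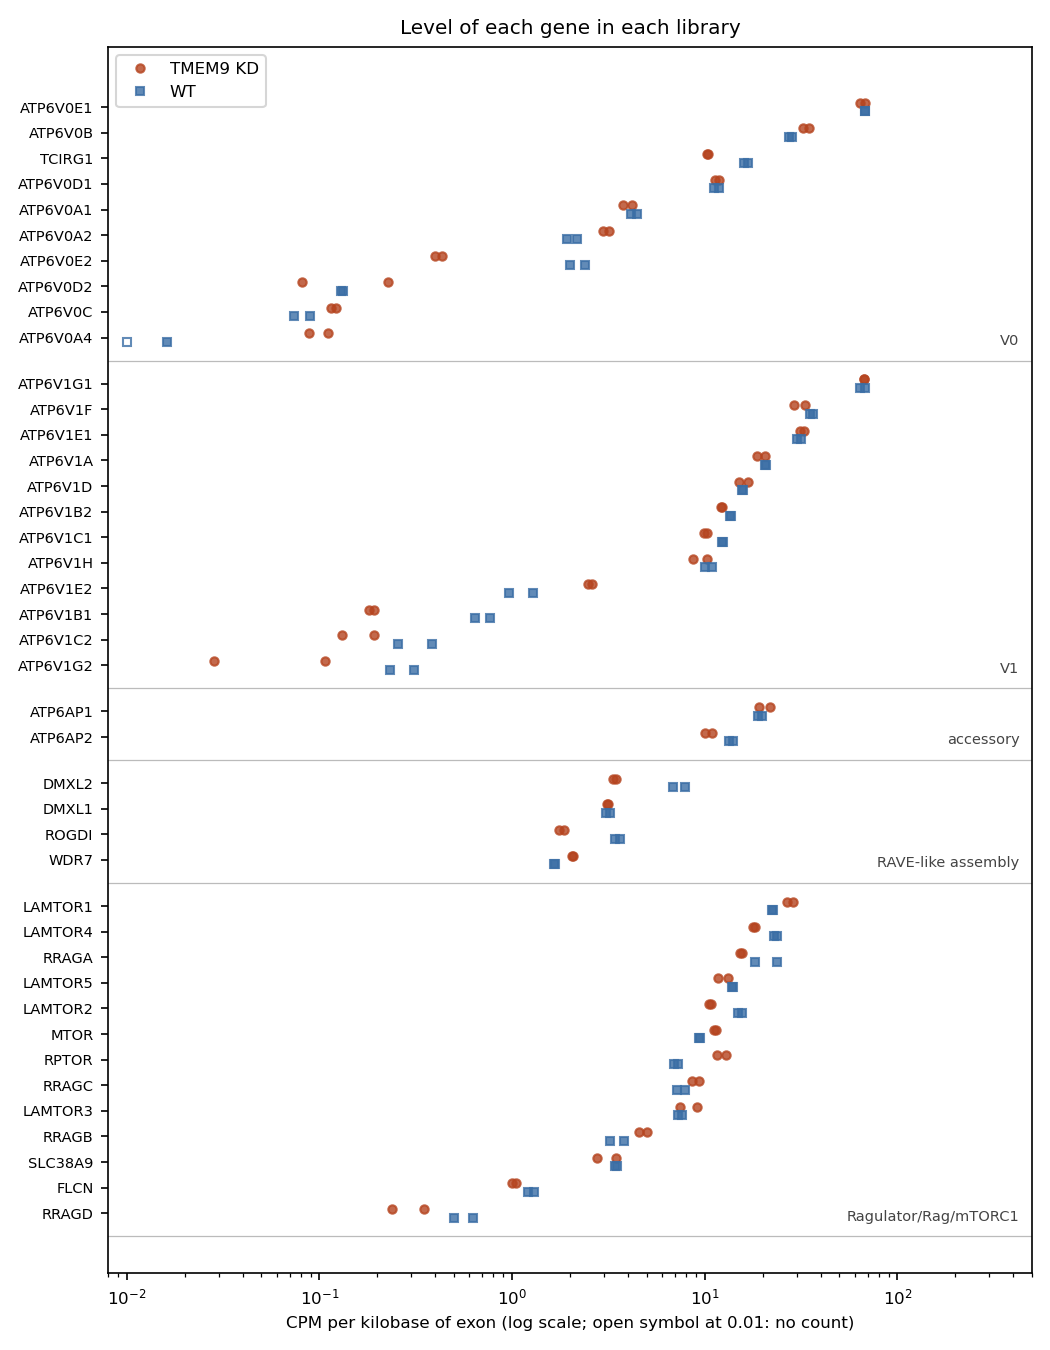
Level of each of the 41 genes (x axis, CPM per kilobase of exon, log scale) in each TMEM9 KD library (circles) and each WT library (squares), by group. ATP6V0E1 and ATP6V1G1 reach 63.7 to 68.0 CPM per kilobase with groups that overlap, while low-level paralogs such as ATP6V0E2, ATP6V1E2 and ATP6V1B1 lie well apart between groups.

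Of the V1 genes, which encode the ATP-hydrolysing sector, 1 of 11 tested was higher and 2 were lower. That is 27.3%, beside 57.7% over all genes, and the difference between these shares was not tested. The 8 subunit forms that carry most of the V1 transcript (A, B2, C1, D, E1, F, G1 and H) had log2 fold changes between -0.29 and 0.05. ATP6V1A, the catalytic subunit, had 105.3 and 95.9 CPM in TMEM9 KD, against 105.3 and 107.2 CPM in WT. Its log2 fold change was -0.08, with a 95% interval of -0.22 to 0.06. Without TMEM9 KD replicate 1 the log2 fold change was -0.14. ATP6V1B2, the main non-catalytic B subunit that pairs with it in the hexamer, had 95.8 and 94.9 CPM in TMEM9 KD, against 106.9 and 105.2 CPM in WT. Both knockdown libraries were below both WT libraries, and the log2 fold change of -0.15 (95% interval -0.29 to -0.01) just missed the threshold (adjusted p = 0.0541). ATP6V1B2 was called with DESeq2 size factors in edgeR (adjusted p = 0.0450) and with a filter at 5 CPM (0.0487). Its log2 fold change was -0.15 without either knockdown library.

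ATP6V1C1 (ENSG00000155097) encodes the C subunit that leaves the pump when the sectors come apart, and it was the one called gene among those 8. It had 58.3 and 60.3 CPM in TMEM9 KD, against 71.9 and 72.9 CPM in WT (log2 fold change -0.29, SE 0.0782, adjusted p = 0.00101). The groups did not overlap, and each group was tight. Among the stalk subunits, ATP6V1D of the rotor had 71.2 and 63.9 CPM in TMEM9 KD, against 66.3 and 67.3 CPM in WT. ATP6V1F, also of the rotor, had 22.9 and 26.1 CPM in TMEM9 KD, against 28.7 and 27.7 CPM in WT (adjusted p = 0.107). Its log2 fold change was -0.20, and -0.30 without TMEM9 KD replicate 2. ATP6V1E1 had 104.7 and 99.98 CPM in TMEM9 KD, against 96.6 and 100.9 CPM in WT, and ATP6V1G1 had 87.2 and 87.6 CPM in TMEM9 KD, against 83.3 and 88.7 CPM in WT. E and G form the outer stalks, and both genes overlapped between groups, with 95% intervals of -0.09 to 0.19 for ATP6V1E1 and -0.12 to 0.17 for ATP6V1G1. ATP6V1H, a regulator of ATP hydrolysis, had 52.1 and 44.0 CPM in TMEM9 KD, against 50.9 and 55.2 CPM in WT. Its groups overlapped (log2 fold change -0.15). Without TMEM9 KD replicate 1, which left a single knockdown library, the log2 fold change was -0.27.

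The low-level paralogs of the V1 sector showed the larger changes, and larger changes at low level were also found over all genes. The median size of the log2 fold change was 0.43 for all genes under 10 CPM per kilobase in both groups. For all genes with a mean of at least 10 in a group it was 0.29. Called changes of at least 2-fold made up 21.9 and 8.07% of these genes. ATP6V1E2 (ENSG00000250565), a form of subunit E best known from testis, had 13.8 and 13.0 CPM in TMEM9 KD, against 6.81 and 5.11 CPM in WT. It was 2.27-fold higher (log2 fold change 1.18, SE 0.168, adjusted p = 2.49e-09). Its share of the summed E level was 7.41 and 7.35% in TMEM9 KD, against 4.11 and 2.99% in WT. ATP6V1E2 shares 155 exon bases with RHOQ on the opposite strand, which had 1145 and 1068 counts in TMEM9 KD and 1313 and 1559 counts in WT.

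ATP6V1B1 (ENSG00000116039), the B form of kidney and inner ear, had 8 and 9 counts in TMEM9 KD, against 31 and 31 counts in WT. The groups lay well apart at a very low level, 0.488 and 0.515 CPM in TMEM9 KD against 2.07 and 1.72 CPM in WT (log2 fold change -1.90, SE 0.475, adjusted p = 0.000367). ATP6V1B1 held 1.46 and 1.55% of the summed B level in TMEM9 KD, against 5.33 and 4.55% in WT. It shares 1676 exon bases with VAX2 on the same strand, which had 13 and 7 counts in TMEM9 KD and 22 and 13 counts in WT. ATP6V1C2, the C form of lung and kidney, had 11 and 8 counts in TMEM9 KD, against 20 and 16 counts in WT, and was not called (log2 fold change -0.96, 95% interval -1.99 to 0.07). It shares 1033 exon bases on the opposite strand with PDIA6, which had at least 4136 counts in every library. ATP6V1G2, the neuronal G form, was filtered out with 1 and 4 counts in TMEM9 KD and 10 and 9 counts in WT.

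Summed per length, the pump's transcripts changed by little. The V0 genes summed to 129.3 and 128.8 CPM per kilobase in TMEM9 KD, against 132.0 and 132.4 in WT. The V1 genes summed to 201.2 and 199.0 CPM per kilobase in TMEM9 KD, against 205.2 and 210.1 in WT. The knockdown libraries were below both WT libraries in each sum, by a few percent. ATP6V0C adds almost nothing to the V0 sum, for the reason given above.

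**Figure D3:**
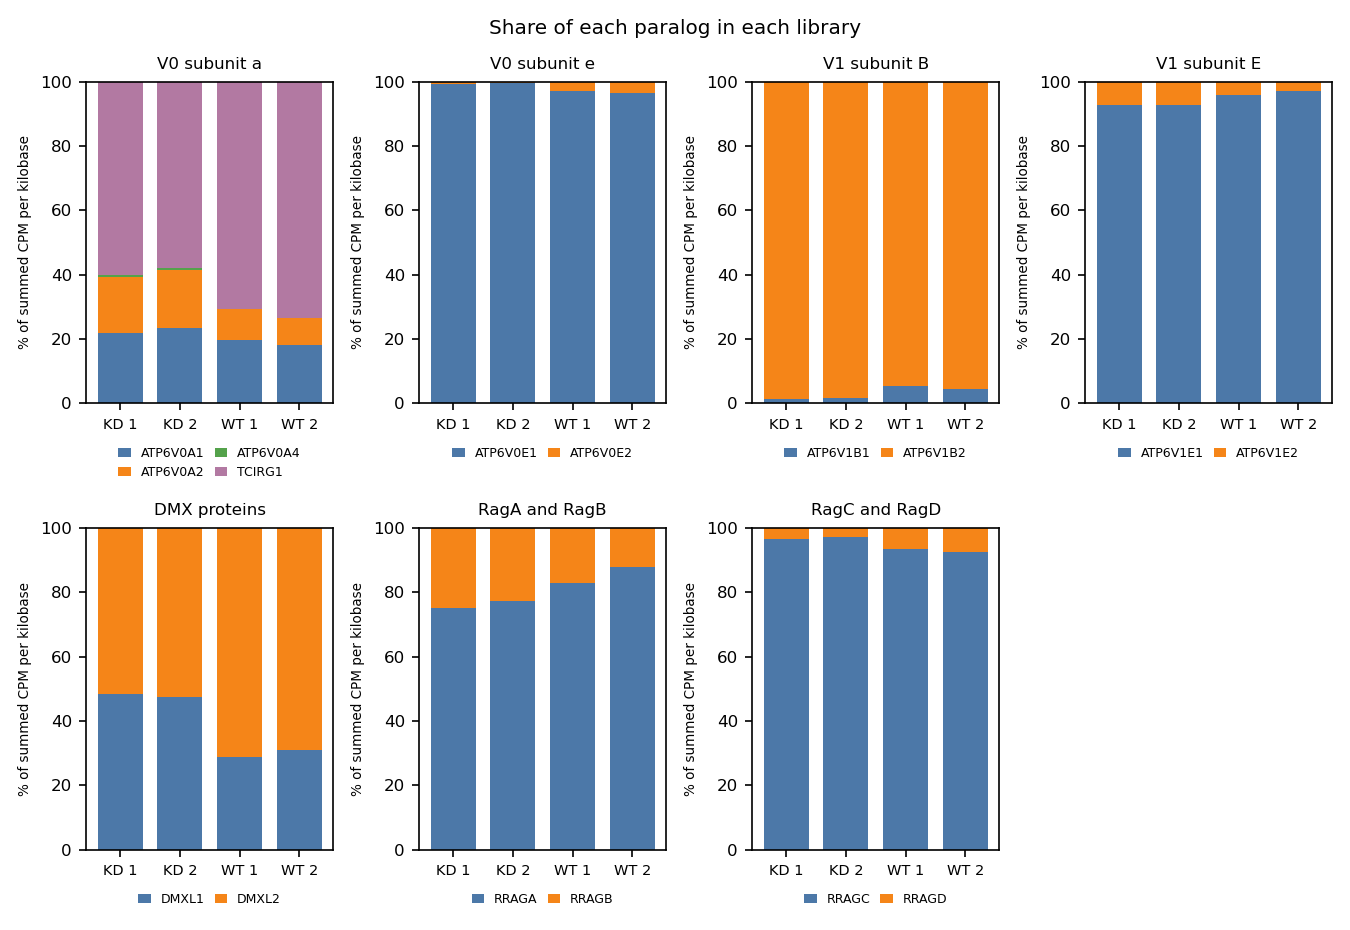
Share of each paralog (y axis, percent of the summed CPM per kilobase of the paralogs) in the 2 TMEM9 KD and 2 WT libraries, with a panel for each subunit or protein pair. TCIRG1 and DMXL2 take smaller shares in TMEM9 KD than in WT, and ATP6V0A2, ATP6V1E2, DMXL1 and RRAGB larger ones.

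Of the 2 accessory subunits, ATP6AP2 was lower and ATP6AP1 was not called. ATP6AP2 (ENSG00000182220), also known as the prorenin receptor, is needed for assembly of the V0 sector. It had 103.8 and 95.7 CPM in TMEM9 KD, against 128.3 and 134.4 CPM in WT. All knockdown values were below all WT values (log2 fold change -0.40, SE 0.0685, adjusted p = 4.12e-07). ATP6AP1, which caps the V0 sector on its luminal side, had 93.8 and 106.7 CPM in TMEM9 KD, against 96.6 and 92.4 CPM in WT. The groups overlapped (log2 fold change 0.09, 95% interval -0.06 to 0.23). It was called higher with library size as the only scaling (adjusted p = 0.0469). Its log2 fold change was 0.18 without TMEM9 KD replicate 1 and -0.016 without TMEM9 KD replicate 2.

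The RAVE-like assembly genes had 2 of 4 lower and 1 higher, which is 75% called, beside 57.7% over all genes. With so few genes, no difference between these shares was tested. DMXL2 (ENSG00000104093), also named rabconnectin-3A, is a large WD-repeat protein that brings V1 to V0. It had 46.1 and 48.0 CPM in TMEM9 KD, against 109.5 and 94.2 CPM in WT. The 2.16-fold lower level stood far outside the spread of both groups (log2 fold change -1.11, SE 0.0789, adjusted p = 3.04e-23). Its paralog DMXL1 had 42.6 and 43.1 CPM in TMEM9 KD, against 44.0 and 41.9 CPM in WT, with a 95% interval of -0.18 to 0.18 for its log2 fold change. DMXL2 made up 51.8 and 52.5% of the summed DMXL level in TMEM9 KD, against 71.1 and 69.0% in WT.

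ROGDI (ENSG00000067836), whose loss causes Kohlschütter-Tönz syndrome in humans, had 6.83 and 6.46 CPM in TMEM9 KD, against 13.4 and 12.6 CPM in WT. Both knockdown libraries were near 0.511 times the WT level (log2 fold change -0.97, SE 0.163, adjusted p = 2.59e-07). ROGDI shares 1412 exon bases on the same strand with AC020663.4, a gene that has no row of counts. WDR7, also named rabconnectin-3B, had 32.3 and 32.4 CPM in TMEM9 KD, against 26.0 and 26.3 CPM in WT. It was higher (log2 fold change 0.31, SE 0.103, adjusted p = 0.00773), but leaving out WT replicate 1 or WT replicate 2 took it past the threshold (adjusted p = 0.0813 and 0.0717). WDR7 shares 234 exon bases with TXNL1 on the opposite strand, which had at least 1660 counts in every library. Summed per length, the RAVE-like genes had 10.36 and 10.45 CPM per kilobase in TMEM9 KD, against 16.45 and 14.98 in WT.

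Of the 13 genes of Ragulator, the Rag GTPases and mTORC1, 5 were higher and 4 lower, or 69.2% called, beside 57.7% over all genes, a difference that was not tested. None of the 13 was both called and changed 2-fold. Ragulator is a pentamer in which LAMTOR1 anchors the complex to the lysosomal membrane and holds the pairs LAMTOR2-LAMTOR3 and LAMTOR4-LAMTOR5. LAMTOR1 (ENSG00000149357) had 74.1 and 79.7 CPM in TMEM9 KD, against 61.8 and 62.7 CPM in WT (log2 fold change 0.31, SE 0.0773, adjusted p = 0.000413). LAMTOR2 went the other way, with 15.5 and 15.2 CPM in TMEM9 KD, against 21.5 and 22.4 CPM in WT (log2 fold change -0.52, SE 0.124, adjusted p = 0.000203). LAMTOR4 was also lower, with 35.2 and 34.6 CPM in TMEM9 KD, against 44.1 and 46.1 CPM in WT (log2 fold change -0.37, SE 0.0919, adjusted p = 0.000325).

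In each of these Ragulator genes the groups did not overlap. LAMTOR3, which pairs with LAMTOR2, had 38.7 and 31.3 CPM in TMEM9 KD, against 32.3 and 30.9 CPM in WT. The groups overlapped (log2 fold change 0.15, 95% interval -0.05 to 0.35). The log2 fold change was 0.29 without TMEM9 KD replicate 2 and -0.0058 without TMEM9 KD replicate 1. LAMTOR5, which pairs with LAMTOR4, had 31.5 and 28.0 CPM in TMEM9 KD, against 33.0 and 33.4 CPM in WT (adjusted p = 0.173). LAMTOR4 shares 356 exon bases with C7orf43 on the opposite strand, which had at least 159 counts in every library.

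The Rag GTPases act as a dimer of RagA or RagB with RagC or RagD, and within both pairs the calls went opposite ways. RRAGA (ENSG00000155876) had 24.1 and 24.8 CPM in TMEM9 KD, against 29.1 and 37.6 CPM in WT. The WT libraries differed widely from each other for this gene (log2 fold change -0.45, SE 0.107, adjusted p = 0.000172). Without WT replicate 2 the log2 fold change of RRAGA was -0.26 and the call ended (adjusted p = 0.151). RRAGB, which is similar to RRAGA in sequence, had 13.7 and 12.4 CPM in TMEM9 KD, against 10.4 and 8.83 CPM in WT (log2 fold change 0.44, SE 0.153, adjusted p = 0.00993). Its call ended with DESeq2 (adjusted p = 0.0789) and without WT replicate 2 (0.188). RRAGB held 24.9 and 22.6% of the summed RagA and RagB level in TMEM9 KD, against 17.3 and 12.1% in WT. The sources used here do not say how reads shared by this pair were assigned.

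RRAGC shares 1183 exon bases on the same strand with AL139260.2, a gene that has no row of counts. RRAGC had 48.2 and 44.2 CPM in TMEM9 KD, against 37.3 and 40.7 CPM in WT (log2 fold change 0.24, SE 0.0906, adjusted p = 0.0171). This call ended with DESeq2 (adjusted p = 0.0832), without TMEM9 KD replicate 1 (0.0860) and without WT replicate 1 (0.272) or 2 (0.0524). RRAGD, whose transcription is driven by TFEB-family factors, had 29 and 21 counts in TMEM9 KD, against 38 and 57 counts in WT. At this low level the log2 fold change of -0.95 had an SE of 0.341 (adjusted p = 0.0131). The call of RRAGD ended with DESeq2 (adjusted p = 0.0888), without TMEM9 KD replicate 2 (0.126) and without WT replicate 2 (0.170).

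RPTOR (ENSG00000141564), the subunit by which mTORC1 docks on the Rag dimer, had the largest increase of the mTORC1 group. It had 119.3 and 133.2 CPM in TMEM9 KD, against 74.9 and 71.6 CPM in WT. The 1.73-fold higher level stood well outside the spread of either group (log2 fold change 0.79, SE 0.0718, adjusted p = 3.15e-17). MTOR (ENSG00000198793), the kinase itself, had 135.2 and 138.2 CPM in TMEM9 KD, against 114.0 and 112.5 CPM in WT (log2 fold change 0.27, SE 0.0666, adjusted p = 0.000274). Both genes were higher in each knockdown library than in each WT library.

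FLCN, the folliculin GTPase activator that acts on RagC and RagD, had 10.3 and 9.78 CPM in TMEM9 KD, against 12.7 and 11.9 CPM in WT. Its knockdown values were below both WT values, yet the change was not called (log2 fold change -0.29, 95% interval -0.59 to 0.01). SLC38A9, a lysosomal amino acid transporter that signals arginine to the Rag GTPases, had 30.7 and 24.5 CPM in TMEM9 KD, against 30.3 and 31.1 CPM in WT. Its groups overlapped (log2 fold change -0.15), and without TMEM9 KD replicate 1 the log2 fold change was -0.32.

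Genes around these complexes were taken from 3 further lists. Among regulators of the pump outside the set, 2 of 9 tested were higher and 3 lower (median log2 fold change -0.10), or 55.6% called, near the 57.7% of all genes. NCOA7, a TLDc-domain protein that binds the V-ATPase, had 138.0 and 126.2 CPM in TMEM9 KD, against 287 and 276 CPM in WT (log2 fold change -1.09, SE 0.0622, adjusted p = 1.85e-29). OXR1, another TLDc protein, had a log2 fold change of -0.49 and ATP6AP1L, a relative of ATP6AP1, one of -0.81. CCDC115, an assembly factor of the V0 sector, had a log2 fold change of 0.33. The calls of ATP6AP1L and CCDC115 ended without WT replicate 2 (adjusted p = 0.160 and 0.454). CCDC115 was also not called with no filter (adjusted p = 0.0662), with DESeq2 (0.159) and without TMEM9 KD replicate 2 (0.104).

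Of the genes that report amino acid supply to the Rag GTPases, 10 of 18 tested were higher and 5 lower, or 83.3% called (median log2 fold change 0.29). Over all genes 57.7% were called, 28.7% higher and 29% lower, and the difference from these shares was not tested. SESN1 and SESN3, which encode sestrins, inhibitors of the pathway, were both lower. SESN3 (ENSG00000149212) had 7.87 and 6.41 CPM in TMEM9 KD, against 42.1 and 42.7 CPM in WT (log2 fold change -2.57, SE 0.126, adjusted p = 3.29e-34). SESN1 had 10.6 and 9.38 CPM in TMEM9 KD, against 25.2 and 28.7 CPM in WT (log2 fold change -1.43, SE 0.130, adjusted p = 2.32e-17). BMT2, which encodes the S-adenosylmethionine sensor SAMTOR, had a log2 fold change of -0.96. MIOS, a subunit of GATOR2, was higher, with 57.0 and 53.3 CPM in TMEM9 KD, against 34.1 and 32.7 CPM in WT (log2 fold change 0.72, SE 0.0898, adjusted p = 2.21e-11).

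Among partners and substrates of mTORC1 and the growth factor arm, 6 of 15 were higher and 2 lower (median -0.0060), or 53.3% called, near the 57.7% of all genes. RHEB, the GTPase that switches on mTORC1, had 76.9 and 67.2 CPM in TMEM9 KD, against 138.0 and 136.7 CPM in WT (log2 fold change -0.93, SE 0.0715, adjusted p = 2.89e-21). MLST8, a core subunit of mTORC1, had a log2 fold change of 0.64, and TELO2, a chaperone of mTOR-type kinases, one of 0.70. LARP1, which binds mRNAs of the translation machinery, had 501 and 538 CPM in TMEM9 KD, against 367 and 352 CPM in WT (log2 fold change 0.53).

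**Figure D4:**
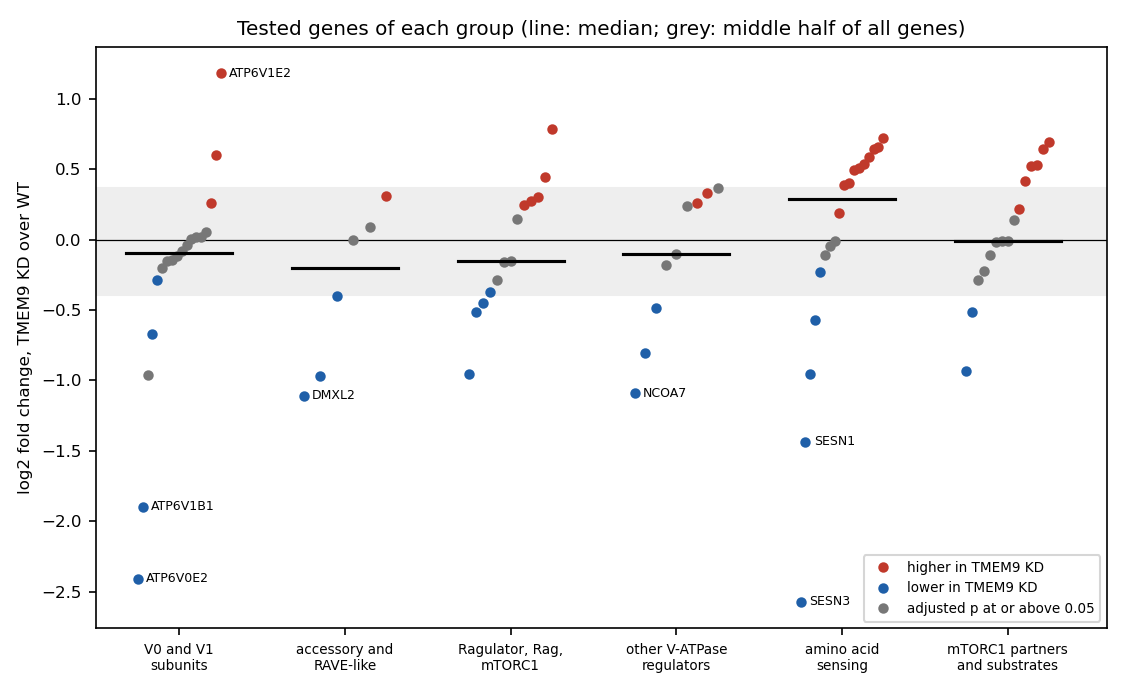
Log2 fold change (y axis, TMEM9 KD over WT) of each tested gene of the pump, its assembly factors, the Ragulator-mTORC1 group and the 3 further lists, with the median of each as a line and the quartiles of all genes as a grey band. The V0 and V1 genes gather near 0 (median -0.10) with single genes far out, and the amino acid sensing genes spread from -2.57 to 0.72.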

How the data were processed

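The authors deposited raw counts per Ensembl gene, 48162 rows with 1 column per library, and 0 columns belonged to no sample. Per the submitters' processing notes, CASAVA and Bowtie 0.12.2 were used, with hg19 and mm8 as builds whose roles are not named. The sources used here do not give the counting tool, annotation or strand setting. GENCODE 29 (GRCh38) gave exon lengths, overlaps and chromosomes only. Lengths are of the union of all annotated exons.

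In edgeR 4.0.16 (R 4.3.3), a quasi-likelihood F test compared 2 TMEM9 KD with 2 WT libraries, with group alone in the model, 2 residual degrees of freedom, TMM factors and the default low-count filter (filterByExpr, count 10 and total 15). The Benjamini-Hochberg adjustment ran over 14923 genes, with a threshold of 0.05. Standard errors came from the F statistic (size of the log2 fold change divided by its root). The 95% intervals used the fit's total degrees of freedom, which add degrees borrowed across genes to the 2 residual ones. Standard errors and p-values thus rest on a spread pooled over genes, and not on each gene's own libraries alone. The fit was tested on simulated data. No set test was run.

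Libraries of a group differed by more than sampling noise (chi-square over degrees of freedom 4.82 for TMEM9 KD and 2.04 for WT), so each was kept.

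The genes and lists were chosen with earlier results of these data known. Every gene of the set is accounted for, and from each further list up to 4 called genes with the largest change are named. A further list and single marker genes are not reported here. Of the listed genes, CASTOR2 and the marker PECAM1 matched no row. Alternatives were 3 other scalings, 2 other filters, DESeq2 1.42.0, limma voom (limma 3.58.1), a test against 1.5-fold, a replicate block, and each library left out. Leaving out a library left a single library in its group. The spread in such a fit came from the libraries of the other group, which limits its p-values.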

Additional observations from a re-analysis of the deposited data

How the results depend on the processing

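Of 20 called genes of the set, 6 kept their call and direction in all 13 alternatives that could test them, namely ATP6V0E2, ATP6V1B1, ATP6V1E2, DMXL2, ROGDI and RPTOR. ATP6V1B1 was not tested with the filter at 5 CPM. The other 14 all lost their call in the test against 1.5-fold, which asks for a larger change. ATP6V0A2, TCIRG1, ATP6V1C1, ATP6AP2, LAMTOR1, LAMTOR2, LAMTOR4 and MTOR lost it only there. ATP6V0B, WDR7, RRAGA, RRAGB, RRAGC and RRAGD also lost it in another alternative. Against a change of 1.5-fold, 2 genes of the set were higher and 4 lower, and 1111 and 1692 of all genes. With a library left out, numbers of calls are not compared, since a group then held a single library. The same-numbered libraries did not deviate together (correlation 0.00047), so the numbers are taken as names. With a replicate block the set kept 9 higher and 11 lower, and all genes 4171 and 4266. DESeq2 called 7 higher and 10 lower of the set, and 3310 and 3640 of all genes, which is 46.6% of all genes tested.

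No called gene of the set changed direction. Among genes that were not called, ATP6V0D1 turned to -0.0019 with DESeq2 size factors, -0.0018 with no filter, and -0.0018 with DESeq2. ATP6V0E1 turned to 0.038 and DMXL1 to 0.071 with library size only. Over the fits that each left out 1 library, the log2 fold change ran from -0.037 to 0.038 for ATP6V0D1, -0.079 to 0.0032 for ATP6V0E1 and -0.059 to 0.085 for ATP6V1D. The same range was -0.027 to 0.062 for ATP6V1G1, -0.016 to 0.18 for ATP6AP1, -0.045 to 0.025 for DMXL1 and -0.0058 to 0.29 for LAMTOR3. The cause was not tested. Depth limits the genes with few counts, and ATP6V1B1, ATP6V1C2 and RRAGD had SEs of 0.475, 0.518 and 0.341.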
